A study of Mus musculus with 8 samples.

Results

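In all, 10 genes that mark mesenchymal and fibroblast-like cells were followed through the accessible chromatin of PyMT mammary tumor cells: Pdgfra, Pdgfrb, Vim, Fn1, S100a4, Thy1, Fap, Lox, Postn and Sparc. They are 10 of the 21755 protein-coding genes of GENCODE M21. The genes were chosen by name, though with earlier results of these data known. A peak was assigned to a gene when it overlapped the gene body or lay within 10 kb of one of its annotated transcription start sites (TSSs). Merging overlapping or adjacent peaks across the libraries gave 87 regions for these genes out of 183173 in all.

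The material was ATAC-seq, in which the Tn5 transposase cuts and tags open chromatin, from 8 libraries in 4 groups of 2. All cells were cell lines derived from tumors driven by the PyMT oncogene in mice of a strain labelled FBV/N, grown in DMEM with serum and sorted by FACS. The WT luminal libraries were BM1 and BM5, the Lats1-CKO luminal ones BM3 and BM7, the WT basal-like ones BM2 and BM6, and the Lats1-CKO basal-like ones BM4 and BM8. WT here means that Lats1, a kinase of the Hippo pathway, was intact, and Lats1-CKO that it was conditionally deleted; all groups carried the oncogene. The luminal gate was EpCAM-high, CD49f-high and the basal-like gate EpCAM-low, CD49f-high at the time of sorting. The sorted cells were then expanded in culture for a short time, so the gate does not give the makeup of the cells that were assayed. The study's methods describe washing fibroblasts off the tumor cultures before use. For unsorted Lats1-CKO cultures, the study also reports more cells that it classed as fibroblasts, to varying degrees. The labels do not tie a library to a tumor or culture, and the driver of Cre is not given in the sources used here, so p-values measure the spread between these libraries, which may be partly technical.

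Fibroblasts and other mesenchymal cells are built around a matrix that they secrete, crosslink and remodel. Pdgfra and Pdgfrb encode receptors for platelet-derived growth factors. Vim (vimentin) and S100a4 act inside the cell, as an intermediate filament and a calcium-binding protein. Thy1 and Fap are surface proteins used to sort fibroblasts, the second a protease. Fn1 (fibronectin), Postn (periostin), Sparc and the crosslinking enzyme Lox are secreted into the matrix. Epithelial tumor cells can switch some of these genes on as they lose epithelial features, so their presence does not by itself name a cell type.

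The libraries held between 14753 peaks (BM3) and 99022 peaks (BM8), with 51497 to 93467 in the other 6. Each peak carried a score of at least 13, which depends on depth, so it was used only as its percentile among the peaks of its own library, and a gene with no peak was given 0. The lists carry no read counts, the depth is unknown, and the lack of a peak means only that none was called. BM3, a Lats1-CKO luminal library, had so few peaks that results which rest on it are given with and without it.

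The 6 regions that carry the account are shown first, with sequence from GRCm38.p6 written 5′ to 3′ in the direction of the member gene. The first is the part of the S100a4 start peak before the gene (chr3:90603585-90603770, plus strand), since that peak was called in both Lats1-CKO basal-like libraries and no other. The second lies in the S100a3 gene upstream of S100a4 (chr3:90597791-90598090, plus strand), called in all basal-like and no luminal libraries. The next pair are the bases before Fn1 (chr1:71653208-71653507, minus strand) and Vim (chr2:13573612-13573911, plus strand), in regions called in 8 and 7 libraries. The last are the regions upstream of Thy1 (chr9:44039825-44040116, plus strand) and Sparc (chr11:55428205-55428504, minus strand), in which BM4 had its highest percentiles for these genes. Capitals mark matches, on either strand, to TGANTCA (AP-1), GGAATG (TEAD), CAGGTG (E-box), TGACGTCA (CRE) and TATAAA, letters of the TATA box.
S100a4 start: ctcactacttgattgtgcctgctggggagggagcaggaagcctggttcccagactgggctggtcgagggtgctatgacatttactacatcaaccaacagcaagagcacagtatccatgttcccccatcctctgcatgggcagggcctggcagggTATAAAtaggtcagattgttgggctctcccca
S100a4 upstream: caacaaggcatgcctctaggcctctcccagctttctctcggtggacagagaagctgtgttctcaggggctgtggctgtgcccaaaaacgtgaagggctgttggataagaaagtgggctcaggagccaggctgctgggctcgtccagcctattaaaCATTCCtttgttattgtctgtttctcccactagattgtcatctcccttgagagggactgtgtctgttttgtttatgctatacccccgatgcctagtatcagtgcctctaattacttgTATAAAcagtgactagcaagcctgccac
Fn1 start: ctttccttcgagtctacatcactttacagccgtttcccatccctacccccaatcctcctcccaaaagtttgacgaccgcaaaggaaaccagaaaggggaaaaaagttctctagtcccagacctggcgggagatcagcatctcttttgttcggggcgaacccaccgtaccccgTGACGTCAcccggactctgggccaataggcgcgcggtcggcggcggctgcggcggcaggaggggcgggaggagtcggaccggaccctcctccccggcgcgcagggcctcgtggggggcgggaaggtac
Vim start: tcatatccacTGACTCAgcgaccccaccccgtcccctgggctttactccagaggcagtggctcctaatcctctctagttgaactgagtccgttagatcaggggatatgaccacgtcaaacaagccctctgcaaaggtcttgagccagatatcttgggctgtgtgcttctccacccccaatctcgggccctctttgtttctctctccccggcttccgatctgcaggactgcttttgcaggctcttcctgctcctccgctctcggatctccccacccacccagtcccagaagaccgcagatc
Thy1 upstream: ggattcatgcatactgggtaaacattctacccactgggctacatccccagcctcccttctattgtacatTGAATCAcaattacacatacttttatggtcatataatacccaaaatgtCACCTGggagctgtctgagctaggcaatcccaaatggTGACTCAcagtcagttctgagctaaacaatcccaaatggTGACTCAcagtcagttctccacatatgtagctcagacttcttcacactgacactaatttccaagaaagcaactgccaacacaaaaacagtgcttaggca
Sparc upstream: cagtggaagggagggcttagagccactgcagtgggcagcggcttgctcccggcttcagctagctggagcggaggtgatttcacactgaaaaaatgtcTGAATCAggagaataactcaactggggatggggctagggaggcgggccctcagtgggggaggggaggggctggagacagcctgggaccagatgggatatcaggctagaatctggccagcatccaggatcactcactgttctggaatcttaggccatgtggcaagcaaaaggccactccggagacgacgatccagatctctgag

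The S100a4 stretch holds a TATAAA whose first base is 32 bp before the gene, and the Fn1 stretch a full TGACGTCA that begins 135 bp before it. The Thy1 region holds 3 AP-1 matches and 1 E-box, and the Sparc and Vim stretches hold 1 AP-1 match each. Over the central 200 bp of all 87 regions, AP-1 letters stood in 18 (20.7%), against 26.1% of all 183173 regions. TEAD letters stood in 14 (16.1% against 15.8%), E-box letters in 11 (12.6% against 13.7%), CRE letters in 1 (1.15% against 0.519%) and TATA letters in 9 (10.3% against 7.79%). The CRE and TATA letters were added after the sequences had been seen. The regions of these genes thus held the 3 motifs chosen first about as often as, or less often than, regions at large, and median GC content was 51% against 49.5%. A match is a description of letters and not of binding.

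Most of the genes had a peak somewhere in their window in every library except BM3. The number with a peak was 10 in BM1, BM7, BM4 and BM8, 9 in BM5, BM2 and BM6, and 4 in BM3. Among all protein-coding genes the shares were 75.2% and 73.0% in WT luminal (BM1, BM5), 46.9% and 77.9% in Lats1-CKO luminal (BM3, BM7), 74.1% and 70.8% in WT basal-like (BM2, BM6) and 77.1% and 77.4% in Lats1-CKO basal-like libraries (BM4, BM8). Wide windows therefore separated the libraries little, and the median percentile of the members with a peak was below that of all genes in every library but BM4. It was 89.7 in BM4, against 85.6 for all genes there, and 53.1 to 78.9 in the other 7, against 65.7 to 87.7.

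The libraries separated as the window narrowed to the start of the gene. Within 1 kb of a TSS, 10 members had a peak in BM4, 8 in BM8, 7 in BM2, 7 in BM6, 6 in BM1, 6 in BM5, 6 in BM7 and 2 in BM3. The shares of all genes were 57.2% in BM4, 58.3% in BM8, 55.9% in BM2, 52.6% in BM6, 57.7% in BM1, 50.9% in BM5, 59.3% in BM7 and 34.6% in BM3. A narrower window, added after the data had been seen, took peaks within 100 bp of the start of a principal transcript. There BM4 had a peak in 9 members, every one except Thy1, BM8 in 6, BM6 in 5, BM2 in 4, BM7 in 4, BM1 in 3, BM5 in 2 and BM3 in 1. For Pdgfra and Sparc these peaks lay at a second principal start, 3607 and 3103 bp into the gene, and no library had one at the first. The shares of all genes were 45.3% in BM4, 45.8% in BM8, 42.0% in BM6, 44.9% in BM2, 47.3% in BM7, 47.7% in BM1, 37.0% in BM5 and 26.9% in BM3. In this narrowest window BM4, BM8 and BM6 had a larger share of members than of all genes, and the luminal libraries and BM2 a smaller one; only in BM4 was the gap wide. Within 1 kb the share of members was above that of all genes in every library but BM3, and close to it in BM1 and BM7.

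**Figure D1:**
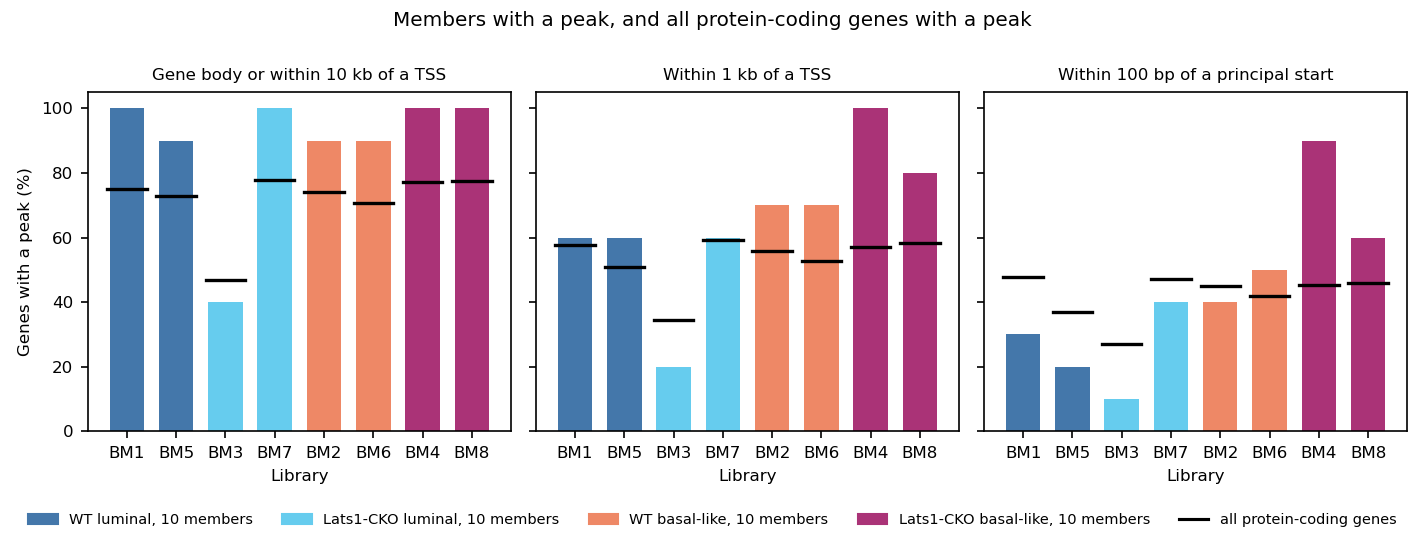
Share of genes with a peak (y axis, percent) in each library (x axis) for 3 windows; bars are the 10 members, coloured by group, and black lines all 21755 protein-coding genes. At principal starts the bar of BM4 stands at 9 of 10 members over a line at 45.3%.

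BM4 also held the highest percentile of the 8 libraries for most of the genes. Genes with a peak in BM4 alone were left out of this count, since BM4 must be highest there: Thy1 and Postn within 1 kb of a TSS, and Fap and Postn at principal starts. BM4 was then highest for 7 of 10 members over the whole window, against 19.7% of all genes, for 6 of 8 within 1 kb, against 17.2%, and for 7 of 7 at principal starts, against 16.6%. This count was chosen after the values had been seen and describes 1 library. BM8, the other library of its group, counted in the same way, was highest for 1 member over the whole window (Postn), 1 within 1 kb (Pdgfra) and 0 at principal starts, against 22.6%, 19.4% and 17.1% of all genes. The 2 libraries of that group thus differed in how high these genes ranked.

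**Figure D2:**
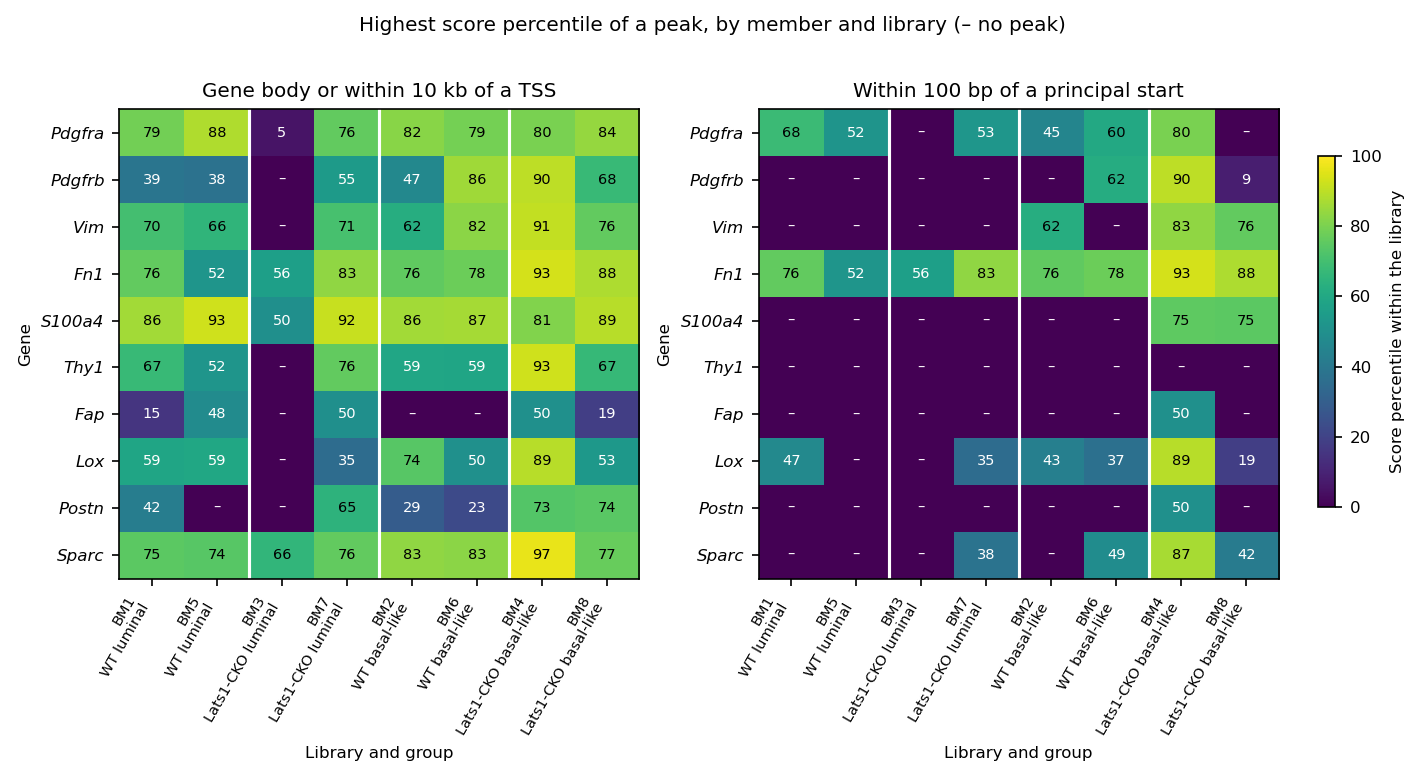
Highest score percentile of a peak (colour and printed value, 0 to 100 within a library; dash, no peak) for each gene (rows) in each library (columns, ordered by group), over the whole window at left and at principal starts at right. At right BM4 has a value in every row but Thy1, while Fap and Postn have one in BM4 only and S100a4 in BM4 and BM8 only.

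The receptor Pdgfrb (ENSMUSG00000024620, chr18:61045150-61085061, plus strand) separated the populations at its start. A region over the TSS (chr18:61044818-61045361), which overlaps the first exon, had a peak at percentile 22.3 in BM2, 62.0 in BM6, 89.9 in BM4 and 49.7 in BM8, and in no luminal library. Basal-like and luminal libraries did not overlap there. The peaks did not coincide base for base: within 100 bp of the TSS itself BM6 and BM4 kept these values, BM8 had 8.57 and BM2 had none, their stronger peaks lying just before it. Over the whole window, the highest percentile of Pdgfrb was 38.8 and 37.8 in WT luminal (BM1, BM5), 0 and 54.7 in Lats1-CKO luminal (BM3, BM7), 46.7 and 85.8 in WT basal-like (BM2, BM6) and 89.9 and 67.5 in Lats1-CKO basal-like libraries (BM4, BM8). Here BM7 stood above BM2, so the populations overlapped (39.7 higher in basal-like, exact permutation p = 0.057). Pdgfrb also had the most peaks of any member in 1 library, 10 in BM4 against 3 to 6 in the other libraries with a peak. One of these, in an intron (chr18:61057151-61057506), was at 88.7 and had no peak in any other library. The Pdgfrb region with the highest median percentile, also in an intron (chr18:61068500-61068643), was called in both populations. It was at 34.5 in BM1, 54.7 in BM7, 41.5 in BM6, 48.1 in BM4 and 60.9 in BM8, with no peak in BM5, BM3 and BM2.

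Its partner Pdgfra (ENSMUSG00000029231, chr5:75152292-75198215, plus strand) was marked in both populations. Its highest percentile was 78.7 and 88.0 in WT luminal (BM1, BM5), 5.31 and 76.0 in Lats1-CKO luminal (BM3, BM7), 82.2 and 78.9 in WT basal-like (BM2, BM6) and 79.9 and 84.0 in Lats1-CKO basal-like libraries (BM4, BM8). Apart from BM3 the libraries lay within a narrow band. The most constant region (chr5:75156229-75156451, an exon near an internal TSS) had a peak in 7 libraries, all but BM3, with 40.0 in BM4 as the lowest and 84.0 in BM8 as the highest. At the second principal start nearby (chr5:75155774-75155982) the order differed, with 79.9 in BM4, no peak in BM8 and BM3, and 45.4 to 68.3 in the other 5. An intronic region (chr5:75164808-75164979) was the only one of the 87 called in at least 3 Lats1-CKO and no WT libraries, at 5.31 in BM3, 44.7 in BM4 and 51.8 in BM8.

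Vim (ENSMUSG00000026728) had 2 regions at its start that behaved differently. The first (chr2:13573532-13573993), over the TSS, had a peak in every library but BM3, at 70.1 in BM1, 56.8 in BM5, 70.9 in BM7, 62.5 in BM2, 82.4 in BM6, 83.5 in BM4 and 76.2 in BM8. The region as a whole did not separate the populations. Within 100 bp of the principal start, however, the peaks of BM2, BM4 and BM8 reached in, and those of BM6 and of the luminal libraries ended before it. The second, just downstream over an exon (chr2:13574053-13574631), was called in all 4 basal-like libraries, at 51.1 in BM2, 32.2 in BM6, 90.7 in BM4 and 74.6 in BM8, and in the luminal library BM7 at 65.8. A region downstream of the gene (chr2:13583451-13584112), ran from 15.4 in BM1 to 88.1 in BM4 among the 7 libraries with a peak, BM3 having none.

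S100a4 (ENSMUSG00000001020, chr3:90603771-90606045, plus strand) lies in a cluster of S100 genes, and 9 of its 13 regions were closer to the TSS of another gene, among them S100a3 and S100a6. Its highest percentile was 86.2 and 92.7 in WT luminal (BM1, BM5), 49.8 and 91.7 in Lats1-CKO luminal (BM3, BM7), 86.0 and 86.6 in WT basal-like (BM2, BM6) and 81.0 and 89.1 in Lats1-CKO basal-like libraries (BM4, BM8), so over the whole window it ranked high in all libraries but BM3 and BM4 was second lowest. That value came in most libraries from an intronic region (chr3:90604430-90604778) with a peak in all 8. The start itself (chr3:90603585-90603819) had a peak in BM4 at 75.3 and BM8 at 74.8 and in no other library. This was the highest in rank of 5 regions called in both Lats1-CKO basal-like libraries and none of the other 6, a pattern of 1.98% of all regions that was added after the data had been seen. The region shown above as S100a4 upstream (chr3:90597755-90598127, in an intron of S100a3) was at 59.3 in BM2, 12.7 in BM6, 69.4 in BM4 and 23.6 in BM8, with no luminal peak. A further region in S100a3 (chr3:90601529-90601802) was the only one of the 87 called in at least 3 WT and no Lats1-CKO libraries, at 20.1 in BM1, 35.1 in BM5 and 37.1 in BM2.

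**Figure D3:**
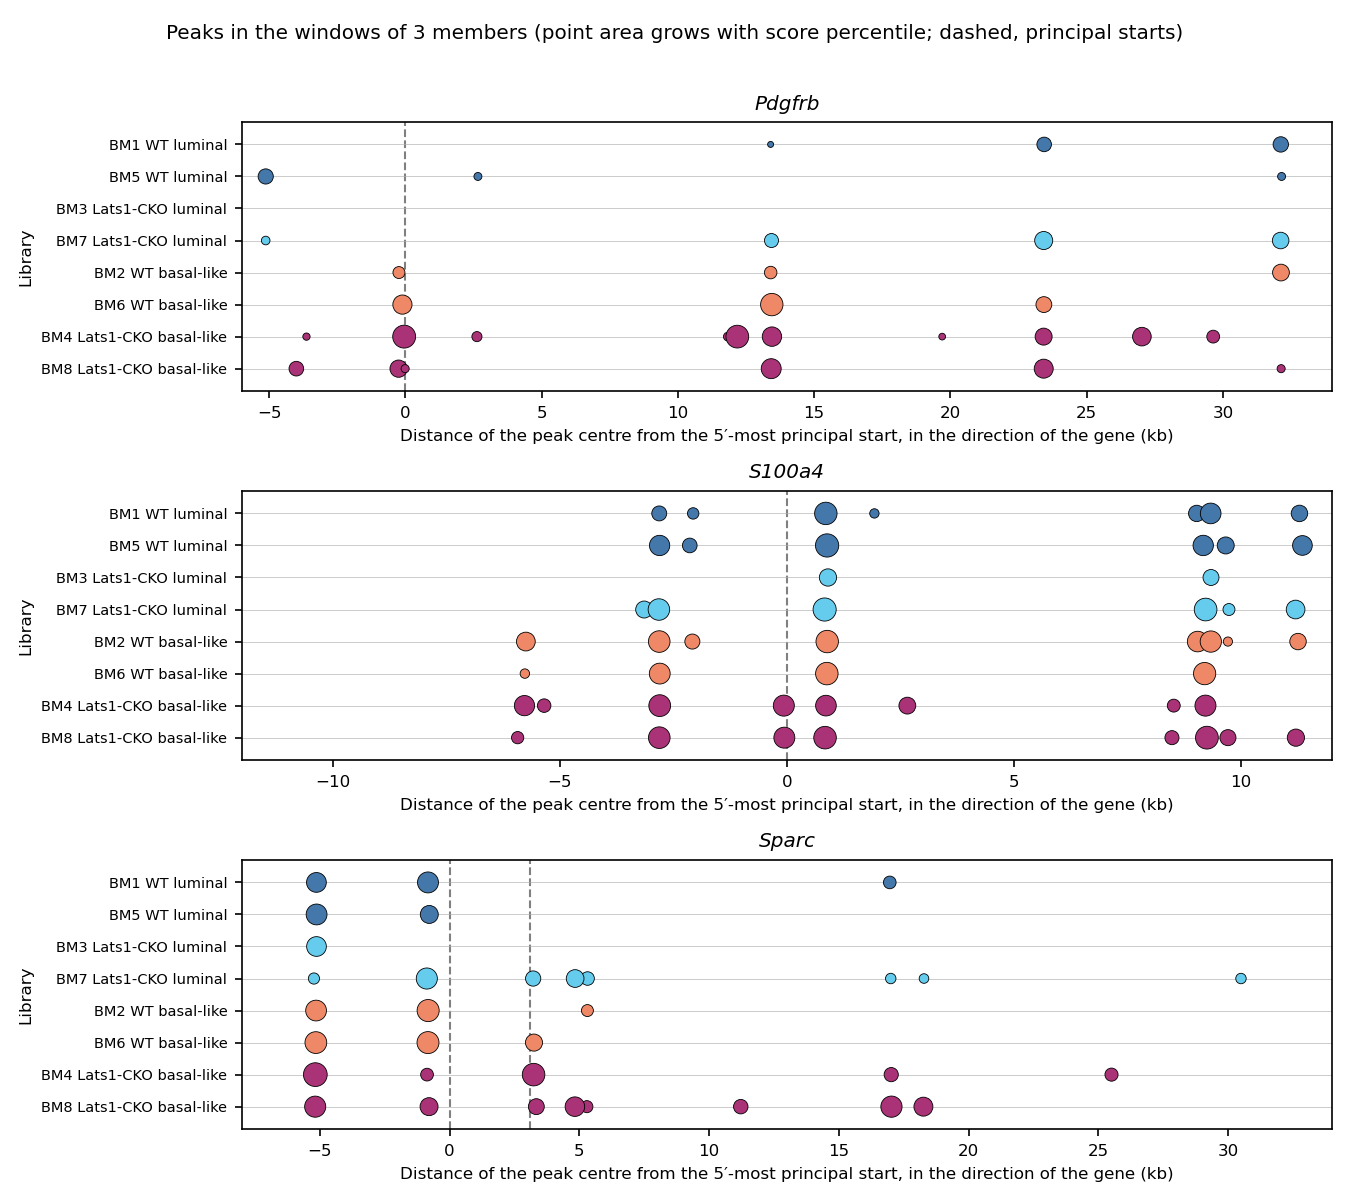
Peaks of Pdgfrb, S100a4 and Sparc by library (rows, coloured by group) against the distance of the peak's centre from the most upstream principal start in kb (x axis), with point area growing with the score percentile and dashed lines at principal starts. Points at the Pdgfrb start lie in the 4 basal-like rows only, those at the S100a4 start in BM4 and BM8 only, and the large BM4 point at the second Sparc start has smaller ones beside it in BM6, BM7 and BM8.

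The surface markers Thy1 and Fap had little at their starts. Thy1 (ENSMUSG00000032011) had no peak within 100 bp of its principal start in any library. Its highest percentiles, 67.4 in BM1, 52.2 in BM5, 76.0 in BM7, 59.3 in BM2, 58.7 in BM6, 92.9 in BM4, 66.9 in BM8 and 0 in BM3, all came from 1 region upstream, within the lincRNA Gm39323. Fap (ENSMUSG00000000392) had the lowest mean percentile of the members in Lats1-CKO (29.7) and in WT libraries (15.9), though not the lowest value in each library. It was at 15.4 in BM1, 48.2 in BM5, 49.98 in BM7, 50.3 in BM4 and 18.5 in BM8, with no peak in BM2, BM6 and BM3. Its only peak over the TSS (chr2:62573973-62574107) was that of BM4. No Fap region had a median percentile above 0 over the 8 libraries. The first by position (chr2:62525819-62526017), in an intron, was at 6.57 in BM1 and 49.98 in BM7 and had no peak elsewhere.

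Of the secreted matrix proteins, Fn1 and Sparc had a peak in all 8 libraries and Lox and Postn did not. Fn1 (ENSMUSG00000026193) had a peak at its start in all 8 libraries (chr1:71653011-71653706), at 76.1 and 52.2 in WT luminal (BM1, BM5), 56.4 and 83.2 in Lats1-CKO luminal (BM3, BM7), 75.6 and 77.5 in WT basal-like (BM2, BM6) and 93.4 and 87.7 in Lats1-CKO basal-like libraries (BM4, BM8). The region overlaps the neighbouring gene Apol7d on the other strand. With BM3 left out, the 3 Lats1-CKO libraries all lay above the 4 WT libraries.

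Sparc (ENSMUSG00000018593) had its highest percentile in BM4, at 96.8, which was also the highest of any member in any library. The others were 74.7 in BM1, 73.9 in BM5, 65.7 in BM3, 75.8 in BM7, 83.3 in BM2, 82.6 in BM6 and 76.6 in BM8, so that every basal-like library lay above every luminal one. The values came from different places. The region furthest upstream (chr11:55428125-55428586) had a peak in all 8 libraries and gave BM4 its 96.8 but BM7 only 19.2. A region before the first TSS (chr11:55423858-55424259) was at 54.0 to 83.3 in the 6 libraries other than BM3, which had none, and BM4, where it was at 25.7. At the second principal start, inside the gene (chr11:55419623-55420056), BM4 had 87.1, BM6 48.6, BM7 38.1, BM8 41.8 and the other 4 none.

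Lox (ENSMUSG00000024529) had a peak over its start (chr18:52529571-52530128) at 89.4 in BM4 and at 47.0 in BM1, 35.4 in BM7, 43.2 in BM2, 37.0 in BM6 and 18.5 in BM8, with none in BM5 and BM3. BM4 was thus far above the other libraries, BM8 included. The Lox region with the highest median percentile lay upstream (chr18:52535375-52535619) and was called in both populations. It was at 59.0 in BM1, 59.4 in BM5, 52.2 in BM2, 50.1 in BM6, 53.5 in BM4 and 53.4 in BM8, with none in BM3 and BM7. Further upstream, a region (chr18:52536771-52537154) was called in 3 basal-like libraries, BM2 at 74.2, BM4 at 66.9 and BM6 at 19.6, and in no luminal library. Postn (ENSMUSG00000027750) had a peak over its TSS (chr3:54361004-54361195) in BM4 alone, at 50.3. Postn had its region of highest median percentile upstream (chr3:54353407-54353538), with no peak in BM5, BM3 and BM6. The values there were 42.4 in BM1, 64.5 in BM7, 8.45 in BM2, 42.5 in BM4 and 74.3 in BM8. Over the whole window its values were 42.4 and 0 in WT luminal (BM1, BM5), 0 and 64.5 in Lats1-CKO luminal (BM3, BM7), 29.3 and 22.5 in WT basal-like (BM2, BM6) and 73.2 and 74.3 in Lats1-CKO basal-like libraries (BM4, BM8), the lowest of the Lats1-CKO values being that of BM3.

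The basal-like and luminal libraries were then compared gene by gene, across all genes with a peak in the window, by a two-sided exact permutation test of 4 against 4 libraries. The smallest p this design allows is 0.029, and after Benjamini-Hochberg adjustment over all 18524 genes the lowest adjusted p was 1, so no gene passed. Without adjustment, 1 member reached that p over the whole window, Sparc, with 84.8 ± 8.50 in basal-like and 72.5 ± 4.62 in luminal libraries (SD, n = 4; difference 12.3, exact permutation p = 0.029, adjusted p = 1). The share of all genes that did so was 0.977%, and 0 members were higher in luminal libraries, against 0.14%. Within 1 kb of a TSS, Pdgfra reached it (80.4 ± 2.50 against 54.3 ± 36.9, SD, n = 4; exact permutation p = 0.029), against 0.727% of 14571 genes. The margin was narrow: the lowest basal-like value was 78.677 in BM2 and the highest luminal value 78.669 in BM1. BM3 had no Pdgfra peak within 1 kb and entered the luminal mean as 0. No single Pdgfra region within 1 kb, and no single Sparc region, put every basal-like library above every luminal one. BM4 took its Pdgfra value from chr5:75155774-75155982, where BM8 had no peak. BM2, BM6 and BM8 took theirs from chr5:75156229-75156451, where BM4 was at 40.0. Sparc within 1 kb was 25.7 higher in basal-like libraries (exact permutation p = 0.171). Pdgfrb (56.0 ± 28.1 against 0 in all 4 luminal libraries) was among the genes tested there only through its basal-like peaks, so its difference is given as a description. Within 1 kb, 0 members were higher in luminal libraries, against 0.206%. No member reached it in the number of peaks, against 0.259% of genes higher in basal-like libraries. The median difference of the members, basal-like minus luminal, was 19.9 percentile points over the whole window, against 6.39 for all genes. Without BM3 it was 9.55, against -0.43, and without BM4 14.3, against 5.65.

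The luminal mean includes BM3. Without it, Sparc averaged 84.8 in basal-like and 74.8 in luminal libraries (exact permutation p = 0.057), and 0 members reached p under 0.05 over the whole window, against 0.718% of genes. Within 1 kb, Pdgfra did (8.02 higher, exact permutation p = 0.029), against 0.488%. Without BM4, Sparc was 8.30 higher (exact permutation p = 0.029). Pdgfra within 1 kb was then 26.3 higher (exact permutation p = 0.171).

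**Figure D4:**
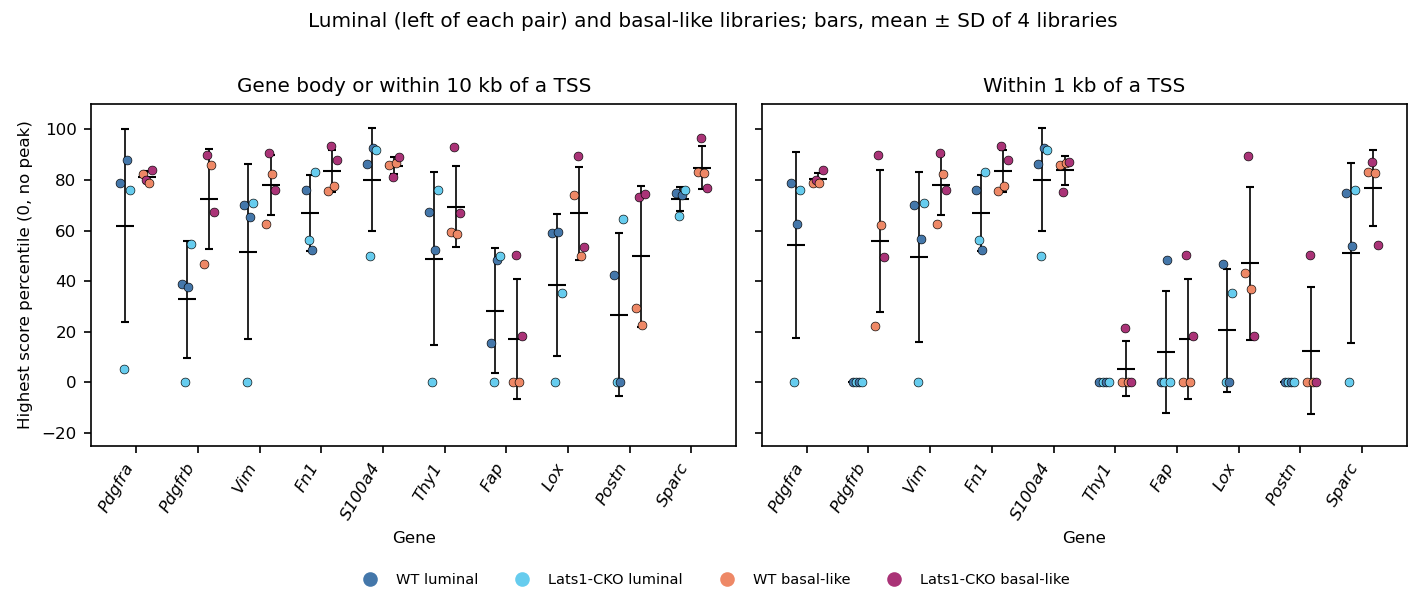
Highest score percentile (y axis; 0, no peak) of each gene (x axis) in the 4 luminal libraries at left and the 4 basal-like libraries at right of each pair, over the whole window and within 1 kb of a TSS; points are libraries coloured by group, and bars are the mean ± SD. The points of Sparc at left and of Pdgfra and Pdgfrb at right do not overlap between populations. Those of Pdgfra at right nearly touch, at 78.669 in BM1 and 78.677 in BM2. In most pairs the lowest luminal point is that of BM3.

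No member passed the same test between Lats1-CKO and WT libraries. For the highest percentile in the window, 0 members reached p under 0.05 in either direction, against 0.394% of genes higher in Lats1-CKO and 0.626% higher in WT. Within 1 kb of a TSS the count was 0 against 0.398% and 0.721%, and for the number of peaks 0 against 0.0162% and 0.081%. The median difference of the members, Lats1-CKO minus WT, was -0.20 percentile points, against -2.01 for all genes. Its sign depended on single libraries: it was 13.4 without BM3, against 4.66 for all genes, and -11.3 without BM4, against -3.85. Postn was 29.5 higher in Lats1-CKO libraries (53.0 ± 35.6 against 23.5 ± 17.7, SD, n = 4; exact permutation p = 0.2), Fn1 was 9.81 higher (exact permutation p = 0.4) and Pdgfra 20.6 lower (exact permutation p = 0.314).

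The genotype comparison depended on BM3, which has 14753 peaks and belongs to the Lats1-CKO side. Without it, Fn1 was 17.7 higher and Postn 47.1 higher in Lats1-CKO libraries, each at the smallest p of 4 against 3 libraries (exact permutation p = 0.029, adjusted p = 0.477). Pdgfra was then 79.96 on average against 81.9 (exact permutation p = 0.571), so its lower value above rested on BM3. These were 2 of 10 members, against 4.84% of all genes. Within 1 kb Fn1 alone did so, against 3.34%. In the number of peaks Pdgfrb (6.67 against 3 on average) and Sparc (7 against 2.75) did so, against 9.42% of genes. Since the Lats1-CKO libraries without BM3 hold 86279 to 99022 peaks and the WT libraries 51497 to 72685, the number of called peaks and the genotype cannot be told apart in that comparison. The study's methods state that a Lats1-CKO luminal replicate was set aside for quality, and do not name it.

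By region, 3 of the 87 were called in at least 3 basal-like and no luminal libraries, at the Pdgfrb start, upstream of S100a4 and upstream of Lox, as given above (0.894% of all regions). None had the reverse pattern (0.192%). The intronic Pdgfra region was the 1 called in at least 3 Lats1-CKO and no WT libraries (1.51%), and the second region in S100a3 the 1 with the reverse pattern (0.658%). The 5 called in both Lats1-CKO basal-like libraries only were the S100a4 start, a region downstream of S100a4 (26.5 in BM4 and 32.02 in BM8), 1 in a Fn1 intron (27.8 and 23.9), 1 before Fap (2.45 and 18.5) and 1 in a Lox intron (29.4 and 38.3). All but the S100a4 start ranked in the lower part of their libraries. In all 8 libraries, 4 regions were called (5.95% of all regions): the Fn1 start, the S100a4 intron, the S100a6 start and the one upstream of Sparc. BM4 alone called 16, or 18.4%, against 11.0% of all regions. Of the 87, 38 were called in 1 library only (43.7%, against 44.5% of all regions), 24 lay upstream, 28 in introns, 22 over exons and 13 downstream.

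The members did not move as 1 block once BM3 was left out. Over the 45 pairs of members, the Pearson correlation of their highest percentiles across 8 libraries had a median of 0.684, with each point a library that all genes share. Without BM3 it was 0.245, from -0.857 to 0.924, so much of the likeness between members lay in the low values of that library.

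Other mesenchymal and fibroblast genes, a list of 48 drawn up with earlier results of these data known, were like the members in BM4 and unlike them in BM8. Within 1 kb of a TSS 34 had a peak in BM4 (70.8%, against 57.2% of all genes). The share was below that of all genes in the other 7, with 28 in BM7 (58.3%), 27 in BM8 (56.2%), 25 in BM2 and in BM6 (52.1%), 24 in BM1 (50%), 21 in BM5 (43.8%) and 10 in BM3 (20.8%). Of the 37 with such a peak in any library, the highest value was in BM4 for 13 and in BM8 for 12. The shares of all genes with a peak were 18.8% and 20.6%. Unlike in the count of the members, genes with a peak in 1 library only were kept here. Mmp14, Eln, Cdh11 and Mfap5 had one in BM4 alone and Pi16 in BM8 alone. By the test of basal-like against luminal libraries, 3 of 48 reached p under 0.05 over the whole window, all toward basal-like: Timp1, an inhibitor of matrix metalloproteinases, Loxl1, a relative of Lox, and Fbln2, a matrix glycoprotein. The shares of all genes were 0.977% higher in basal-like and 0.14% higher in luminal libraries. Timp1 was at 32.7 (BM3) to 70.7 (BM7) in the luminal and at 82.7 (BM6) to 94.6 (BM4) in the basal-like libraries. Loxl1 was at 0 to 44.9 in the luminal and at 55.4 to 71.2 in the basal-like libraries, and Fbln2 at 0 to 83.1 and at 84.9 to 97.4. Within 1 kb Timp1 alone reached p under 0.05, against 0.727% of all genes. By genotype 0 of 48 did over the whole window, against 0.394% of all genes higher in Lats1-CKO and 0.626% higher in WT. Within 1 kb Pdgfd, a ligand of the PDGF receptors, was lower in Lats1-CKO libraries (0 in BM3 to 79.97 in BM7, against 80.4 to 88.2 in WT). The share of all genes lower in Lats1-CKO there was 0.721%. No adjusted p passed. The tests of this list are given with BM3 only, which had no peak for Loxl1 and Fbln2 in the window and none for Pdgfd within 1 kb. Among the genes with a high mean percentile within 1 kb were Cd44, a hyaluronan receptor (85.0 on average over the 8 libraries), and Nt5e, a surface nucleotidase (80.0).

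Markers of other cell types are given beside these. The luminal list holds Epcam and the basal list Itga6, which encode EpCAM and CD49f, the proteins the cells were sorted on. Of 10 luminal genes, 10 had a peak near a TSS (1 kb) in BM1, 9 in BM5, 9 in BM7, 5 in BM3, 9 in BM2, 7 in BM6, 7 in BM4 and 6 in BM8. The percentiles of the list summed to 676 in BM1, 662 in BM5, 597 in BM7, 626 in BM2, 455 in BM4, 399 in BM6, 361 in BM8 and 269 in BM3. BM4 was thus neither the lowest in number nor in sum, and the genes of the list went different ways. Epcam and Cdh1, which hold epithelial cells together, and the keratin gene Krt18 had no such peak in BM4 and BM8. BM3 had none for Krt18 either. Over the whole window Cdh1 was at 91.4 in BM4 and 84.6 in BM8, against 88.1 to 92.4 in WT libraries. Epcam (2.45 in BM4, 18.5 in BM8) and Krt18 (5.71, 47.4) were below every WT value there. Within 1 kb, Elf5 and Gata3, transcription factors of luminal cells, were at 93.3 and 97.0 in BM4 and at 86.7 and 94.6 in BM8. Krt19 was highest of all libraries in BM4 (67.5) and Cd24a in BM8 (91.0). These genes were chosen after their values were seen. By the test within 1 kb, Krt18 alone of the 10 was lower in Lats1-CKO libraries (0 to 26.2, against 51.0 to 57.6 in WT). The share of all genes was 0.721%, and BM3, which had no Krt18 peak within 1 kb, was included. Of 10 basal genes, 5 had a peak in BM4, 4 in BM8 and 3 to 7 in the others. Pericyte and smooth muscle genes (7) had 0 to 2, with 1 in BM4, and endothelial genes (6) 0 to 2, with 2 in BM4. Immune genes (8) had 3 in BM4 (37.5%), 5 in BM8 (62.5%), 4 in BM7 (50%) and 0 to 2 in the others. The shares of all genes within 1 kb were 57.2% in BM4, 58.3% in BM8, 59.3% in BM7 and 34.6% to 57.7% in the others. The immune share was thus near that of all genes in BM8 and below it elsewhere. Pericyte and endothelial shares were below it in every library, and the basal share in every library but BM7 (70%). The luminal share was above it in every library, though near it in BM8 (60%). The share of cells of another type in BM4 or BM8 was not tested, and cells of another type cannot be told apart from a changed state of the sorted cells in peak lists of bulk samples.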

How the data were processed

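ATAC-seq peak lists of 8 libraries, 2 for each of the 4 groups, were analysed. The authors deposited 1 list per library, each peak with a score; its values, at least 13 in every library, were read as the score of MACS2, and it is not normalized between libraries. Per the study's methods, reads were trimmed, aligned to mm10 and cleared of duplicates and long fragments, and peaks on the ENCODE blacklist were removed; the submitters' processing notes name cutadapt, Bowtie 1.0.0, Picard 2.3.0 and MACS2 2.1.1.20160309, while the methods give another MACS2 version. No read counts or depths were used here, so no counting interval can be given. A library with more reads can call more and weaker peaks, which moves both counts and percentiles.

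The score was turned into its percentile within a library (average rank). Peaks were assigned to genes of GENCODE M21 by gene body or within 10 kb of a TSS, and also within 1 kb of a TSS and within 100 bp of an APPRIS principal transcript start. Positions are 1-based on GRCm38. Overlapping or touching peaks were merged into regions, and 1 bp of overlap counted as a peak. Two-sided exact permutation tests of 4 against 4 libraries were run gene by gene on all genes with a peak, with Benjamini-Hochberg adjustment over all of them. Sequence came from GRCm38.p6 (RefSeq); the central 200 bp of each region was searched for motifs on either strand. Python 3.11.15, numpy 2.4.6, pandas 2.3.3 and pysam 0.24.0 were used, and the tests were checked on simulated data.

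Groups came from the labels. The genes, gene lists and tests were chosen with earlier results of these data known. All 10 genes are named; of their regions, the one with the highest median percentile per gene, those called in at least 3 of 4 libraries of 1 genotype or population and none of the other 4, those in all 8 libraries and the peaks at the starts are described, the last chosen after their values were seen. Alternatives were the 10000 highest-scoring peaks, peaks above the median score of the library, narrower windows, peaks per 10000, libraries with a peak only, a stricter overlap (0.5 of the peak or region), whole regions for motifs, and each library left out.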

Additional observations from a re-analysis of the deposited data

Results flagged for a closer look

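Sets of 4 libraries of 1 genotype or population were looked at by Dixon's limit. The limit is set for about 1 in 20 sets, a rate that does not hold here. Each library enters a genotype and a population set, and the values include zeros and small counts. In 10 of the 44 sets looked at, 1 library stood apart from the other 3 by this limit. BM3 was the low library in 7 of them: the number of members with a peak (4, among Lats1-CKO and among luminal libraries), Pdgfra (5.31, in both), Vim (0, luminal), S100a4 (49.8, luminal) and Postn (0, Lats1-CKO). Among the WT libraries BM1 stood apart with 10 members against 9 in the other 3, which differ by a single gene. BM5 stood apart among the WT libraries in opposite directions, low for Fn1 (52.2) and high for S100a4 (92.7). BM3 has 14753 peaks, and the part of this in its low values was not tested.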

How the results depend on the processing

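No paired analysis was possible because the labels carry no replicate numbers. Over 21 results and 224 alternative values, 180 were counted as the same. These were counts that were equal or close, tests that kept direction and side of the threshold, and mean differences that moved by less than the spread. The last include differences whose sign changed, such as the mean number of members with a peak given below. The count of members higher at p under 0.05 in basal-like libraries, 1 over the whole window (Sparc), was 0 among the 10000 highest-scoring peaks and 2 within 1 kb of a TSS (Pdgfra, and Pdgfrb through its basal-like peaks), and 0 to 1 with 1 library left out, with Sparc lost without BM1, BM3 or BM7 and Pdgfra taking its place without BM5. That of the number of peaks, 0, was 1 within 1 kb (Pdgfrb) and 0 to 1 with 1 library left out (Lox, without BM1). By genotype both counts, 0, were 0 to 2 with 1 library left out, the 2 being those without BM3. Regions called in Lats1-CKO only (1) were 0 with the stricter overlap and among the 10000 highest-scoring peaks, and 0 to 2 with 1 library left out. Regions in WT only (1) were 0 among peaks above the median score and among the 10000 highest-scoring, and 0 to 2 with 1 library left out. Regions in basal-like only (3) were 1 with the stricter overlap, 1 above the median score, 0 among the 10000 highest-scoring and 2 to 5 with 1 library left out (5 without BM7). Regions in luminal only (0) were 1 above the median score. The mean number of members with a peak was 0.75 lower in Lats1-CKO than in WT libraries (from 1.25 lower to 0.75 higher with 1 library left out) and 1.25 higher in basal-like than in luminal libraries (-0.17 to 1.83). The difference of Pdgfra between populations, 19.3, was -22.0 among the 10000 highest-scoring peaks. The regions called in both Lats1-CKO basal-like libraries and no other, 5, were 1 above the median score and 0 among the 10000 highest-scoring peaks, so that the S100a4 start is not in that set. Beyond fewer peaks or libraries entering, the cause of these changes was not tested. Depth is unknown, so a missing peak cannot be told apart from too few reads.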
